A study of Mus musculus with 8 samples.

Results

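MicroRNAs (miRNAs) released into culture medium were compared between co-cultures of muscle cells in which mutant and wild-type cells shared their medium and co-cultures of wild-type cells alone. The samples were chosen by their title: the 3 G93A/WT arrays and the 2 WT/WT arrays, 5 of the 8 arrays of the series, with 1 medium sample on each. In G93A/WT, myocytes from hSOD1(G93A) mice grew in the bottom chamber of a transwell and myocytes from hSOD1(WT) mice in the insert above it. In WT/WT, both chambers held hSOD1(WT) myocytes. Both kinds of mice overexpress human SOD1, as the normal protein in B6SJL(Tg-SOD1)2Gur/J mice and as the G93A mutant in B6SJL(Tg-SOD1*G93A)1Gur/J mice, a model of amyotrophic lateral sclerosis (ALS). No co-culture was therefore free of the human transgene, and WT does not mean a non-transgenic mouse. The cells were primary myoblasts from hind limb muscle of pups aged 1 to 3 days, labelled male, bred from hemizygous males. They were seeded at 2.5 in the bottom chamber and 1.5 in the insert (both in 1e5 cells), separated by pores of 0.4 µm, and left untreated. Medium was collected on day 2 in vitro, about 600 µl of it went into RNA extraction, and each array received 150 ng of labelled small RNA, so that the input was equal whatever the medium held. Each sample is a biological replicate per the labels, which give no litter, culture day or promoter of the transgenes. Where 2 samples came from related animals, p-values would measure only the spread between these samples. With 2 and 3 arrays in the groups, the number of arrays limits the precision.

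miRNAs are short RNAs that guide a silencing complex to messenger RNAs, mainly by pairing of their seed, bases 2 to 8. They are cut from hairpin precursors that give a 5p and a 3p arm, and 1 arm is usually kept while the other is degraded. Cells pass some of them into the medium inside vesicles or bound to protein. Skeletal muscle cells make miR-1a, miR-133a, miR-133b and miR-206, known as myomiRs, which act in the growth and differentiation of myoblasts. Serum added to culture medium brings miRNAs of its own, many of the same sequence as those of the mouse. Per the labels the cells were grown first with foetal bovine and then with horse serum. Which medium was collected is not said there, medium without cells was not analysed here, and the part of serum in any level was not tested. In medium, fewer cells of a type, less release per cell and faster decay cannot be told apart.

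The sequences below carry the comparisons that follow. RefSeq (GRCm38.p6) held a mature sequence under the same name for 453 of the 538 tested miRNAs, and for 20 of the 21 that passed the test. The 4 members of the miR-181 family share a seed, shown in capitals, and did not lie on the same side of zero.
miR-181a-5p: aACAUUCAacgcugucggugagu
miR-181b-5p: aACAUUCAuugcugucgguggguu
miR-181c-5p: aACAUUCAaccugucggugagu
miR-181d-5p: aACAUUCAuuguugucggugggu

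The next set holds both arms of miR-411, which passed the test, again with the seed in capitals. The others were detected in G93A/WT medium but not in WT/WT. So was miR-411-5p, which stood at the floor on both WT/WT arrays and could not lie below zero. It met the filter only through the G93A/WT arrays. The 20 passing miRNAs with a sequence had 20 different seeds.
miR-411-5p: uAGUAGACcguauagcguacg
miR-411-3p: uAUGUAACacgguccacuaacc
miR-1945: uCUUCGCGgguacugucgggac
miR-7009-5p: uUGGGGUCaggggaccagagcu
miR-682: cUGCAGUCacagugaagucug
miR-452-5p: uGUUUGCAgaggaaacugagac
miR-28a-5p: aAGGAGCUcacagucuauugag
miR-450a-2-3p: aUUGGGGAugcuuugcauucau

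Epithelial miRNAs follow, with the seed in capitals. miR-429-3p, miR-200b-3p and miR-200c-3p share theirs.
miR-205-5p: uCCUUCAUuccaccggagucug
miR-203-3p: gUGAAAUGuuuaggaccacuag
miR-429-3p: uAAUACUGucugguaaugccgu
miR-200b-3p: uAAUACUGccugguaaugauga
miR-200c-3p: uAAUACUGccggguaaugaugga

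The next sequences are pairs and trios whose near identity bears on how they can be read. The 3p arms of both miR-3070 precursors differ at 2 of 22 bases, shown in capitals, and probes for such a pair may bind both. The 5p arms of miR-291a, miR-291b and miR-294 share a run of 10 bases, also in capitals.
miR-3070-3p: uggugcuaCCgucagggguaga
miR-3070-2-3p: uggugcuaUGgucagggguaga
miR-291a-5p: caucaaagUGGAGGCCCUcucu
miR-291b-5p: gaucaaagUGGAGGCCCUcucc
miR-294-5p: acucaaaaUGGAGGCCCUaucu

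The last set holds 3 of the brightest miRNAs in the medium, with runs of 4 or more G in capitals.
miR-8110: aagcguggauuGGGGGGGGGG
miR-1224-5p: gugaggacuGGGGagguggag
miR-6931-5p: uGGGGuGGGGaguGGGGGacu

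The G93A/WT arrays were brighter and detected more miRNAs than the WT/WT arrays. Of 1881 mouse miRNAs on the array, WT/WT 1 and 2 detected 450 and 461, and G93A/WT 1, 2 and 3 detected 497, 563 and 520. The groups did not overlap, and the mean difference was 71.2 miRNAs (exact permutation test, 2-sided, p = 0.2, the smallest value that 2 arrays against 3 can give). The summed signal before scaling was 115122 and 139644 units in WT/WT against 143713, 202908 and 167513 units in G93A/WT (exact permutation p = 0.2), and the array with the largest sum, G93A/WT 2, also detected the most. Most control features of the array were brighter in G93A/WT too before scaling. The G93A/WT to WT/WT ratios of their mean signals ran from 1.36 (hur_1) to 2.14 (hur_6). Exceptions were miRNABrightCorner30 (0.775), dmr_3 (0.395) and dmr_6 (0.318). The part of array brightness in the number of detected miRNAs was not tested. The 3 brightest miRNAs took 48.1% and 47.4% of the signal in WT/WT and 45.4%, 39.7% and 42.8% in G93A/WT. All levels below are log2 of the signal after each array was scaled on the miRNAs detected everywhere. The scale factors were 1.44 and 1.13 in WT/WT and 0.933, 0.593 and 0.755 in G93A/WT. An undetected miRNA was put at a floor of 0.60.

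Detection was nested between the groups. All 445 miRNAs detected on both WT/WT arrays were also detected on all 3 G93A/WT arrays. Of 21 miRNAs on 1 WT/WT array, 14 were on all 3 G93A/WT arrays and 0 were on none. A further 108 miRNAs were detected in G93A/WT medium and on no WT/WT array: 26 on all 3 arrays, 31 on 2 and 51 on 1, of which 40 were on G93A/WT 2 alone. No miRNA was detected in WT/WT and missed in all of G93A/WT. Among the 26 gained on all 3 arrays, 12 were also on no array of the remaining group, G93A/G93A (mutant cells in both chambers), and 4 were on all 3 of its arrays.

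**Figure D1:**
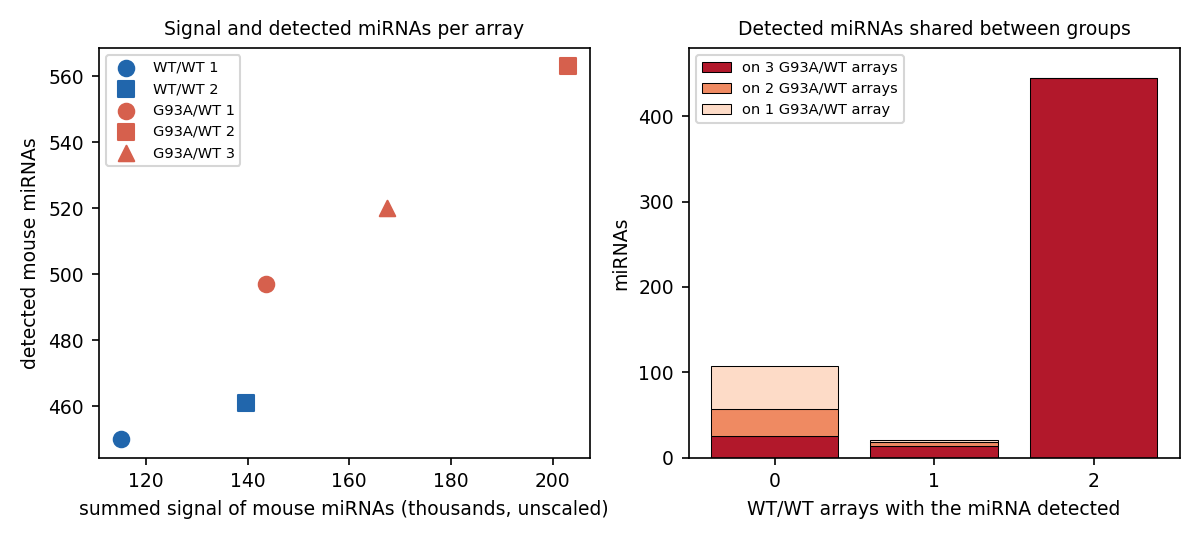
Left, the summed unscaled signal of mouse miRNAs (in units of 1000) against the number of detected miRNAs, 1 point per array; right, the number of miRNAs by how many WT/WT arrays detected them, with the bars split by the number of G93A/WT arrays. The 3 G93A/WT arrays lie above and to the right of the 2 WT/WT arrays, and all 445 miRNAs found on both WT/WT arrays were found on all 3 G93A/WT arrays.

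Few miRNAs passed the test between the media, and those that did were dim. In limma, 21 of the 538 tested miRNAs passed an adjusted p of 0.05, which is 3.9% of those tested. Of these, 17 were higher in G93A/WT (3.16%) and 4 were lower (0.743%). At an unadjusted p under 0.05 there were 132 (24.5%). The median difference over all 538 was 0.04 on the log2 scale. All 3 G93A/WT arrays stood above both WT/WT arrays for 104 miRNAs (19.3%) and below both for 140 (26%). Of the 17 higher miRNAs, 12 were detected on no WT/WT array, 2 on 1 WT/WT array and 3 on both. The filter asked for detection on at least 2 of the 8 arrays, and 9 of these 12 met it only through the G93A/WT arrays, where they are high. Their p-values come from the fit of all tested miRNAs and, for that reason, are not separate support for a difference. The 4 lower ones were detected on all 5 arrays. Of the 20 with a RefSeq position, 14 lie within the span of a protein-coding gene.

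The counts rested on choices of processing and on single arrays. With scaling on the median 16 were higher and 11 lower, with quantile normalization 6 and 9, and with no scaling 130 and 0, with the median of all miRNAs then at 0.79. When only the 445 miRNAs detected on all 5 arrays were tested, 0 passed in limma and 107 had an unadjusted p under 0.05, so the 7 always-detected calls depended on which other miRNAs were tested. The slide had 2 rows, with G93A/WT and WT/WT 1 in row 1 and WT/WT 2 and G93A/G93A in row 2. With the row as a block, and within row 1, the difference was therefore that from WT/WT 1 alone. Its median over all tested miRNAs was −0.01 in both. Leaving out WT/WT 1 gave 7 calls and leaving out G93A/WT 2 gave 11. Leaving out G93A/WT 1 gave 34 and leaving out G93A/G93A 3 gave 61. All 21 kept their sign in each of these fits that tested them, apart from the 4 lower ones without scaling.

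**Figure D2:**
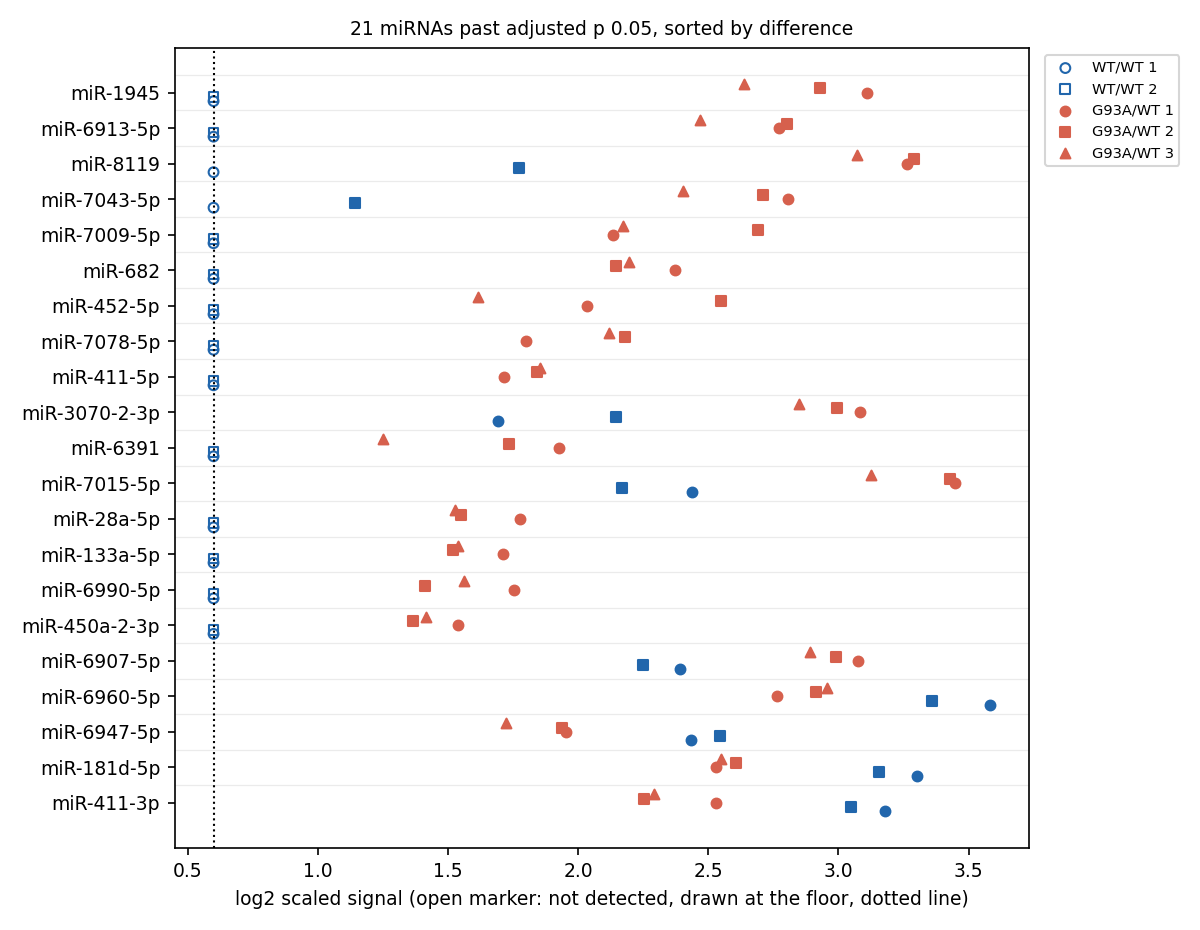
Log2 scaled signal of the 21 miRNAs that passed the test, 1 marker per array, sorted by the difference between the groups; an open marker is an undetected miRNA, drawn at the floor (dotted line, 0.60). The groups do not overlap for any of the 21, and the highest level among them is 3.58.

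Among the miRNAs that passed, the largest gain was in miR-1945, at chr16:11254381-11254402 on the minus strand (GRCm38.p6), outside any protein-coding gene. It was undetected on both WT/WT arrays and stood at 3.11, 2.93 and 2.64 on G93A/WT 1, 2 and 3 (adjusted p = 0.000494). Their mean lay 4.30-fold above the lowest detected signals of the WT/WT arrays, a ratio written below as "over the lowest signal". Such a ratio sets the G93A/WT mean against the lowest detected signal of each WT/WT array. Detection is judged per miRNA, so a miRNA may go undetected above that signal. The ratio is therefore not a lower bound, and the true difference may be smaller or absent. miR-6913-5p, within Dohh on chromosome 10, was likewise undetected in WT/WT and stood at 2.77, 2.80 and 2.47 in G93A/WT (3.71-fold over the lowest signal, adjusted p = 0.046). The 3 arrays of the mixed medium lay close together for both. A larger gain that did not pass was that of miR-7060-5p, within Fbrs, undetected in WT/WT and at 3.38, 3.15 and 3.02 in G93A/WT (5.26-fold over the lowest signal, adjusted p = 0.0793). Its G93A/G93A arrays, which enter the shared spread, ran from undetected to 3.43.

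miR-7009-5p, within Anxa5 at chr3:36475498-36475519, followed with levels of 2.14, 2.69 and 2.17 in G93A/WT and no detection in WT/WT (2.91-fold over the lowest signal, adjusted p = 0.00254). For miR-682 the G93A/WT arrays read 2.37, 2.14 and 2.20 (2.73-fold over the lowest signal, adjusted p = 0.000494). miR-452-5p lies within Gabre on the X chromosome beside miR-224, and its G93A/WT levels of 2.04, 2.55 and 1.61 spread more widely (2.42-fold over the lowest signal, adjusted p = 0.0231). Its neighbour miR-224-5p, named after its values were seen, was detected on all 5 arrays and stood at 2.67 and 2.52 in WT/WT against 2.15, 2.90 and 2.86 in G93A/WT (difference 0.04, adjusted p = 0.925). The groups overlapped for the neighbour and not for miR-452-5p.

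miR-7078-5p, within Cmip, read 1.80, 2.18 and 2.12 in G93A/WT (2.37-fold over the lowest signal, adjusted p = 0.011). miR-6391, within Abcc4, read 1.93, 1.74 and 1.25 (1.80-fold over the lowest signal, adjusted p = 0.0374). miR-28a-5p lies within Lpp at chr16:24827868-24827889 and read 1.78, 1.55 and 1.53 (1.78-fold over the lowest signal, adjusted p = 0.00309). None of these 3 was detected in WT/WT. The other arm of the last precursor, miR-28a-3p, stood at 4.07 and 4.06 in WT/WT and at 4.19, 4.07 and 4.02 in G93A/WT (difference 0.02, adjusted p = 0.904). Thus the dim arm passed and the brighter arm, measured on all 5 arrays, showed overlapping groups.

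miR-6990-5p, within Esrra, was undetected in WT/WT and read 1.76, 1.41 and 1.56 in G93A/WT (1.73-fold over the lowest signal, adjusted p = 0.00561). miR-450a-2-3p, at chrX:53048304-53048325, read 1.54, 1.37 and 1.42 (1.57-fold over the lowest signal, adjusted p = 0.00401), the lowest levels of the 12. miR-411-5p and miR-133a-5p, described below with their partner arms, complete the 12. Of these 12, 9 were undetected in G93A/G93A medium as well. The exceptions were miR-6913-5p and miR-7078-5p, on all 3 of its arrays, and miR-682, on 1.

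2 further miRNAs were detected on WT/WT 2 and not on WT/WT 1. miR-8119, within Lck on chromosome 4, was undetected on WT/WT 1, stood at 1.77 on WT/WT 2 and at 3.26, 3.29 and 3.07 in G93A/WT, a difference of 2.02 ± 0.31 (SE, adjusted p = 0.0183). miR-7043-5p, within Rassf4, was undetected on WT/WT 1, stood at 1.14 on WT/WT 2 and at 2.81, 2.71 and 2.40 in G93A/WT (1.77 ± 0.28, SE, adjusted p = 0.0201). Both were also detected on all 3 G93A/G93A arrays, at means of 3.37 and 2.17. The lowest G93A/WT array stood above WT/WT 2 by more than the gap among the G93A/WT arrays in each case.

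Higher and detected on all 5 arrays were miR-3070-2-3p, miR-7015-5p and miR-6907-5p. miR-3070-2-3p, at chr12:109588648-109588669 in the span of the imprinted gene Rtl1, stood at 1.69 and 2.14 in WT/WT and at 3.08, 3.00 and 2.85 in G93A/WT (1.06 ± 0.20, SE, adjusted p = 0.0415). Its near-identical relative miR-3070-3p stood at 2.43 and 2.83 against 3.61, 3.61 and 3.50 (0.94 ± 0.25, SE) and did not pass (adjusted p = 0.0706). The pair gave like differences, and since their sequences differ at 2 bases the array may not separate them. miR-7015-5p, within Smap2, stood at 2.44 and 2.17 in WT/WT against 3.45, 3.43 and 3.13 (1.03 ± 0.21, SE, adjusted p = 0.046), and miR-6907-5p, within Rrp1, at 2.39 and 2.25 against 3.08, 2.99 and 2.89 (0.66 ± 0.14, SE, adjusted p = 0.0489). These 3 differences exceeded the spread within both groups.

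The 4 lower miRNAs were miR-411-3p, miR-181d-5p, miR-6947-5p and miR-6960-5p. miR-411-3p stood at 3.18 and 3.05 in WT/WT and at 2.53, 2.26 and 2.29 in G93A/WT, a difference of −0.76 ± 0.14 (SE, adjusted p = 0.0392). The opposite arm of its precursor, miR-411-5p, was undetected in WT/WT and read 1.72, 1.84 and 1.85 in G93A/WT (2.02-fold over the lowest signal, adjusted p = 0.000741). The arms lie at chr12:109710225-109710246 and chr12:109710190-109710210 in the imprinted Dlk1-Dio3 locus, a region that encodes many miRNAs active in developing muscle. The arms thus differed in sign, with the brighter 3p arm lower and the dimmer 5p arm at a level just above detection. At the floor on both WT/WT arrays, the 5p arm could not lie below zero. It was undetected in G93A/G93A as well, so it met the filter only through the G93A/WT arrays. At its G93A/WT level the 5p arm would have read 2.43 and 3.09 unscaled units on WT/WT 1 and 2. Only 5% of the miRNAs detected on those arrays lay below 3.01 and 3.15 units. The part of the detection limit in the sign of the 5p arm was not tested. Without scaling the difference of the 3p arm was 0.0153.

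miR-181d-5p, at chr8:84178759-84178781, stood at 3.30 and 3.16 in WT/WT and at 2.53, 2.61 and 2.55 in G93A/WT (−0.67 ± 0.10, SE, adjusted p = 0.0189). Its relatives miR-181a-5p and miR-181b-5p are known to act in myoblast differentiation. miR-181a-5p read 2.34 and 2.54 against 1.88, 2.11 and 1.80 (−0.51, adjusted p = 0.0611), and miR-181b-5p read 3.91 and 4.07 against 3.51, 3.81 and 3.53 (−0.37, adjusted p = 0.162). All G93A/WT arrays stood below both WT/WT arrays for these 3, as they did for 26% of all tested miRNAs and 31.5% of those detected on all 5 arrays. miR-181c-5p, from the same hairpin cluster as miR-181d and with the same seed, was undetected on WT/WT 1, stood at 2.00 on WT/WT 2 and at 2.02, 2.94 and 3.02 in G93A/WT (1.36, adjusted p = 0.201). The family list of 10 miRNAs had 4 tested members, 1 lower and 3 that did not pass, with 1 of 4 above zero and a median of −0.44.

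miR-6947-5p, within Actr8, stood at 2.43 and 2.55 in WT/WT and at 1.96, 1.94 and 1.72 in G93A/WT (−0.62 ± 0.13, SE, adjusted p = 0.0479). miR-6960-5p, within Troap, stood at 3.58 and 3.36 against 2.77, 2.91 and 2.96 (−0.59 ± 0.11, SE, adjusted p = 0.0407). Their G93A/G93A means were 2.35 and 3.42, near the WT/WT values, whereas miR-411-3p and miR-181d-5p had G93A/G93A means of 1.92 and 2.46. These comparisons share the WT/WT arrays.

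The calls lay at the levels where WT/WT arrays began to miss miRNAs. Of 289 tested miRNAs with a G93A/WT mean of 4 or more, all 289 were detected on both WT/WT arrays and none passed. Between 3 and 4 the share on both WT/WT arrays was 97.8% of 89, between 2 and 3 it was 71.4% of 70, and between 1 and 2 it was 23.2% of 69. The 17 higher calls fell at 1 to 2 (6), 2 to 3 (9) and 3 to 4 (2). On its own brightness, WT/WT 1 would have shown the 12 gained miRNAs at 1.89 to 5.17 unscaled units had they been at their G93A/WT level, and WT/WT 2 at 2.40 to 6.57 units. The lowest detected signals of these arrays were 1.31 and 1.40 units, but only 5% of their detected miRNAs lay below 3.01 and 3.15 units, and 8 and 6 of the 12 would have done so. The part of array brightness in these 12 calls was not tested. An array at the floor adds no spread to the fit, so the adjusted p of a miRNA at the floor may be too small.

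In the authors' deposited table of the same arrays, which gives a value where the scanner output gives no detection, the gained miRNAs stood out mainly on G93A/WT 1. All 12 were above both WT/WT arrays on G93A/WT 1, 7 of them on G93A/WT 2 and 6 on G93A/WT 3. For miR-133a-5p the authors' deposited table read, as log2, −1.66 and −1.67 in WT/WT and 1.48, −1.98 and −1.92 in G93A/WT. For miR-1945 it read −2.15 and −1.84 against 3.30, 0.19 and −0.94, and for miR-411-5p −1.79 and −1.75 against 1.63, −1.46 and −1.56. For these 3 miRNAs the G93A/WT arrays thus lay further apart in that table than in the scanner output, where they were close together. Of the other 9 passing miRNAs, 7 kept their groups apart in the authors' deposited table. The 2 that did not were miR-8119 and miR-7043-5p. limma on the values of that table called 5 of 492 miRNAs, none of them among the 21, although all 21 kept their sign.

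**Figure D3:**
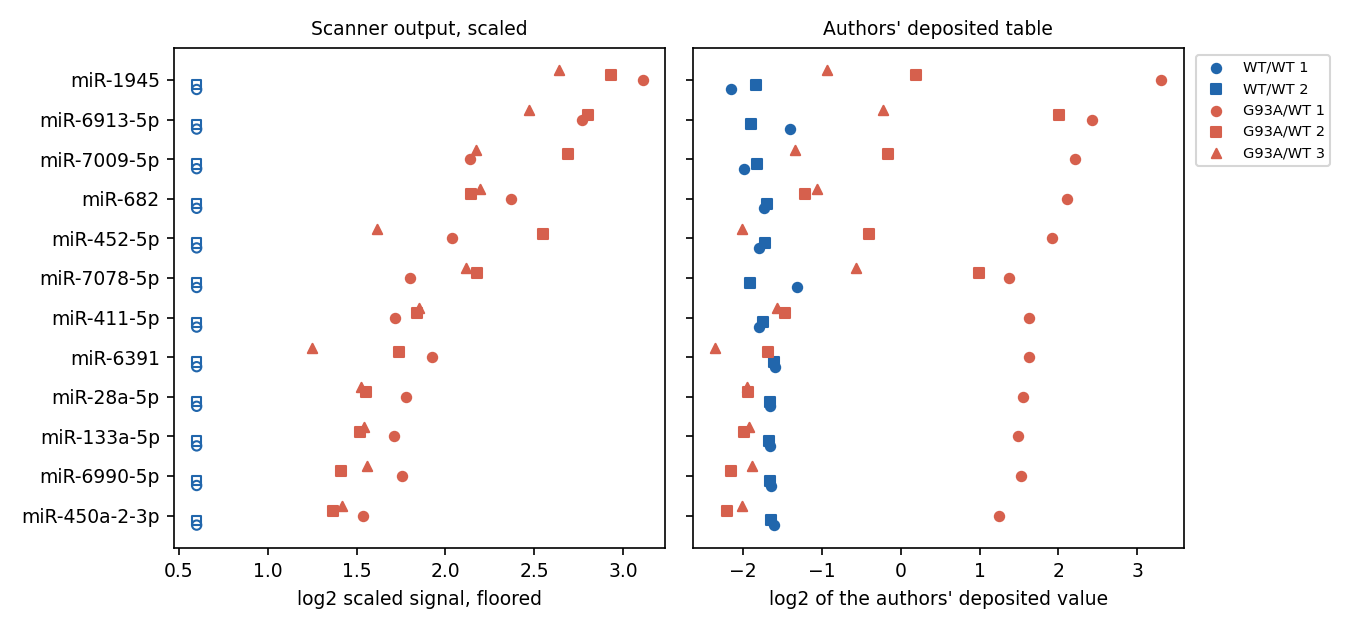
Log2 levels of the 12 miRNAs that passed and were detected on no WT/WT array, from the scaled scanner output (left; open markers undetected, at the floor) and from the authors' deposited table (right), 1 marker per array. On the left the 3 G93A/WT arrays stand together above the floor; on the right G93A/WT 1 alone stands above 1 for most of the 12.

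After scaling, bright miRNAs tended to be lower in G93A/WT. The 445 miRNAs detected on all 5 arrays were divided by mean level into 4 groups of near-equal size. From the dimmest to the brightest group the median difference was 0.09, 0.02, −0.04 and −0.23. In the brightest group of 111 miRNAs, all G93A/WT arrays stood below both WT/WT arrays for 57 and above both for 7, against 29 and 28 of 112 in the dimmest. Over the 445 these counts were 140 below (31.5%) and 72 above (16.2%), and 47.2% of the 445 had a difference above zero. In the brightest group each G93A/WT array lay below the WT/WT mean, with medians of −0.16, −0.22 and −0.23. Within slide row 1, which held the G93A/WT arrays and WT/WT 1, the medians from the dimmest to the brightest group were −0.06, −0.05, −0.05 and −0.22. Against WT/WT 1 alone, therefore, the median was below zero in every level group and lowest in the brightest. The part of array brightness in this pattern was not tested.

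**Figure D4:**
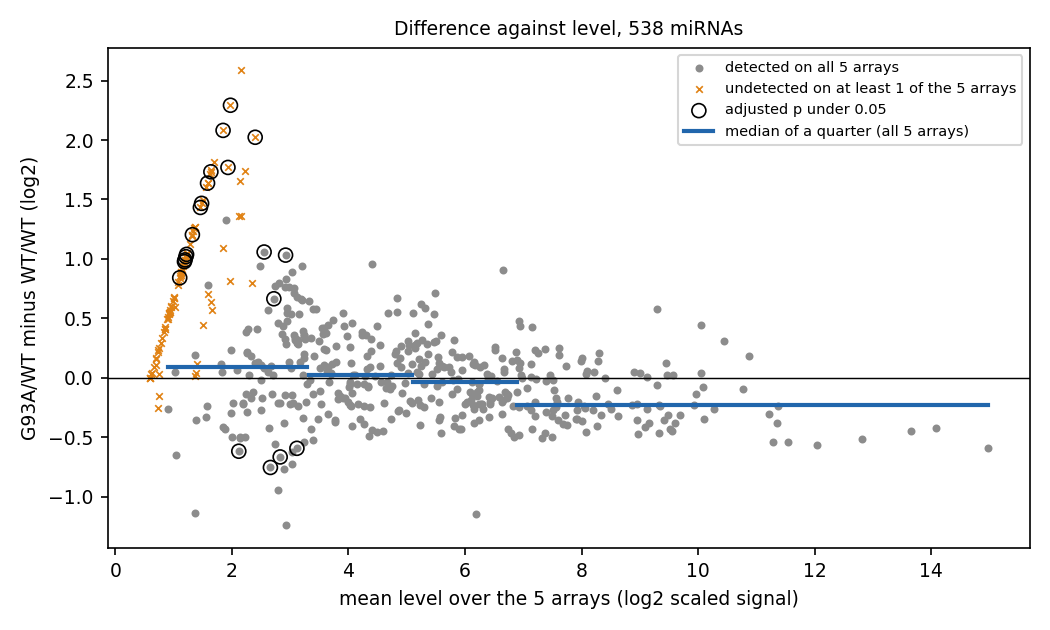
Difference G93A/WT minus WT/WT (log2) against mean level over the 5 arrays (log2 scaled signal) for the 538 tested miRNAs; crosses are miRNAs undetected on at least 1 of the 5 arrays, rings mark the 21 that passed, and blue lines give the medians of the 4 level groups of the 445 always detected. Rings lie at low levels, and the brightest level group has a median of −0.23.

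Of the 10 brightest miRNAs, 9 stood lower on every G93A/WT array than on either WT/WT array, and none passed. miR-8110, the brightest, read 15.34 and 15.31 in WT/WT and 14.92, 14.52 and 14.75 in G93A/WT (−0.59 ± 0.16, SE, adjusted p = 0.0793). miR-1224-5p read 13.13 and 13.11 against 12.66, 12.57 and 12.59 (−0.51 ± 0.11, SE, adjusted p = 0.053). miR-6931-5p read 12.38 on both WT/WT arrays against 11.84, 11.83 and 11.77 (−0.57, adjusted p = 0.0703). The WT/WT arrays were nearly equal for these 3. miR-6366, miR-2861, miR-5126, miR-3960, miR-6769b-5p and miR-211-3p differed by −0.31 to −0.54. The tenth, miR-206-3p, had overlapping groups.

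The difference also varied with sequence composition. Among 379 always-detected miRNAs with a RefSeq sequence, the median difference was 0.05 for the 144 with a GC content up to 50%, −0.09 for 200 between 50% and 70%, and −0.28 for 35 above 70%, of which 29 lay below zero. The 92 miRNAs with GGGG in the mature strand had a median of −0.17 and the 287 without had −0.02. That contrast depended on level: above the median level, 44 of 55 miRNAs with GGGG lay below zero (median −0.22) against 76 of 134 without (−0.08), while up to it 15 of 37 with GGGG lay below zero (0.07) against 72 of 153 without (0.02). GC-rich miRNAs were also brighter, with a median level of 7.07 above 70% GC against 4.96 up to 50%. These miRNAs share arrays and scaling, and the counts are descriptions.

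The myomiRs, defining markers of the labelled cell type, were bright in both media, with miR-206-3p among the 10 brightest miRNAs, and most did not pass the test. Of 15 muscle miRNAs on the array, 6 were tested, 1 was higher, against 3.16% of all tested, and 5 did not pass. The higher one, miR-133a-5p, met the filter only through the G93A/WT arrays, so the count is not separate support. miR-206-3p, specific to skeletal muscle, read 11.28 and 11.75 in WT/WT and 11.06, 11.37 and 11.39 in G93A/WT (−0.24 ± 0.17, SE, adjusted p = 0.384). miR-133b-3p, from the same locus, read 10.42 and 10.10 against 10.45, 10.69 and 10.57 (0.31 ± 0.20, SE, adjusted p = 0.36). The first pair of groups overlapped and the second did not.

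miR-133a-3p, which promotes myoblast proliferation, read 8.96 and 8.93 in WT/WT and 9.35, 9.66 and 9.56 in G93A/WT (0.58 ± 0.39, SE, adjusted p = 0.366). Its groups did not overlap. Its SE was set mostly by G93A/G93A, whose arrays read 8.28, 9.36 and 9.73. When only the 5 arrays entered the fit its adjusted p was 0.0565. The passing member was the other arm, miR-133a-5p, undetected in WT/WT and at 1.71, 1.52 and 1.54 in G93A/WT (1.74-fold over the lowest signal, adjusted p = 0.00254). It was also undetected in G93A/G93A and met the filter only through the G93A/WT arrays. Its p-value is therefore not separate support for a difference. In the authors' deposited table only G93A/WT 1 stood above both WT/WT arrays for miR-133a-5p. miR-1a-3p, which promotes differentiation, read 7.42 and 7.41 against 7.34, 7.24 and 7.57 (−0.03), and miR-208a-5p differed by 0.13. The log2 of the summed signal of the tested members ran from 12.15 to 12.34 in WT/WT and from 12.09 to 12.36 in G93A/WT.

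miRNAs of epithelia, another cell type than the labelled myocytes, were detected in both media, and none passed the test. Of 14 on the array 7 were tested and 0 passed, against 3.9% of all tested. Of the 7, 5 lay below zero, and their median difference was −0.43 against 0.04 over all tested. All G93A/WT arrays stood below both WT/WT arrays for 4 of the 7, as they did for 26% of all tested miRNAs and 31.5% of those detected on all 5 arrays. miR-205-5p, abundant in stratified epithelia, read 6.99 and 6.77 in WT/WT and 5.54, 5.96 and 5.69 in G93A/WT (−1.15 ± 0.51, SE, adjusted p = 0.219). miR-203-3p, a keratinocyte miRNA, read 3.94 and 3.41 against 1.87, 2.92 and 2.51 (−1.24 ± 0.30, SE, adjusted p = 0.0611). Neither overlapped between groups. These were the 2 largest decreases among the 445 miRNAs detected on all 5 arrays, followed by miR-540-3p (−1.14, adjusted p = 0.0703).

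The members of the miR-200 family, which keeps cells in an epithelial state, were less uniform. miR-429-3p read 3.33 and 3.40 in WT/WT and 1.64, 2.75 and 2.86 in G93A/WT (−0.95, adjusted p = 0.154), and miR-200c-3p read 2.40 and 1.89 against 1.81, 1.60 and 1.74 (−0.43, adjusted p = 0.16). miR-200b-3p overlapped, at 2.95 and 1.91 against 2.14, 2.39 and 2.40 (−0.12, adjusted p = 0.807), although it shares its seed with both. miR-200a-5p went the other way, undetected in WT/WT and at 1.00, 2.51 and 1.87 in G93A/WT (1.19, adjusted p = 0.15), and miR-200b-5p stayed at the floor on 4 of the 5 arrays. The log2 summed signal of the list was 7.40 and 7.13 in WT/WT and 6.02, 6.53 and 6.29 in G93A/WT, which did not overlap. In G93A/G93A miR-205-5p read 0.60, 2.42 and 2.24, and this spread enters its SE. With only the 5 arrays in the fit its adjusted p was 0.0318, and that of miR-203-3p 0.11.

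Other cell types left no clear difference. Their lists were short, and 3.9% of all tested miRNAs passed. Of 5 tested mesenchymal miRNAs none passed, with miR-199a-3p at 0.14, miR-214-3p at −0.14, miR-199a-5p at −0.38 and miR-199b-5p at 0.91 (6.61 and 5.61 in WT/WT against 6.83, 7.11 and 7.09, adjusted p = 0.283). Red cell and serum miRNAs gave 0 of 4, and miR-451a, abundant in erythrocytes, read 9.84 and 9.72 against 10.13, 10.22 and 10.33 (0.45, adjusted p = 0.212) while miR-486a-5p differed by −0.32. The leukocyte miRNA miR-223-3p read 6.74 and 6.63 against 7.06, 7.11 and 7.19 (0.43, adjusted p = 0.0793), and miR-150-3p differed by 0.10. The endothelial miR-126a-3p (−0.14) and 3 tested neural miRNAs, of which miR-128-3p was the brightest (0.05), overlapped between groups. For miR-451a and miR-223-3p all G93A/WT arrays stood above both WT/WT arrays, as they did for 19.3% of all tested miRNAs.

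Among 26 tested regulators of myoblasts, 0 passed, 13 lay above zero and 13 below, with a median of 0.00. Of all tested miRNAs 3.9% passed and 55.9% lay above zero. With so low a share, 0 passing in this list or in the shorter ones below says little about their members. miR-125b-5p, known to restrain differentiation, read 9.78 and 9.87 in WT/WT against 9.28, 9.45 and 9.41 (−0.45, adjusted p = 0.0611). miR-23a-3p, linked to muscle mass, read 9.47 and 9.21 against 8.98, 8.87 and 8.93 (−0.41, adjusted p = 0.101), and its paralogue miR-23b-3p differed by −0.43. miR-27a-3p (0.15) and miR-24-3p (−0.10), made from the same precursor RNA as miR-23a, had overlapping groups. Of the 6 tested members of these clusters 0 passed and 3 lay above zero. In the inflammation list 0 of 9 passed, and miR-21a-5p read 9.52 and 9.21 against 9.61, 9.35 and 9.51 (0.12).

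Families divided by sign without passing. Of the 11 tested members of the miR-15/16 superfamily, which restrains the cell cycle, 0 passed and 11 lay above zero. Their median was 0.26 against 0.04 over all tested, of which 55.9% lay above zero and 3.9% passed. Among the 11, miR-195a-3p was at the floor on both WT/WT arrays and could not lie below zero. The largest difference in the superfamily was that of miR-15a-5p, at 4.26 and 3.39 in WT/WT against 4.74, 4.74 and 4.88 (0.96, adjusted p = 0.2). The bright miR-16-5p differed by 0.00. Of 11 tested members of miR-17-92 and its paralogues, which drive proliferation, 0 passed and 9 lay above zero (median 0.23), with miR-92a-3p at −0.08 and miR-19b-3p at 0.17. The groups overlapped for most of both lists.

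On the other side of zero, 5 of 7 tested miR-125, miR-99 and miR-100 miRNAs lay below it (median −0.31, 0 passed), as did 4 of 6 of the miR-30 family (median −0.30, 0 passed). Over all tested miRNAs 55.9% lay above zero and 3.9% passed. miR-30c-2-3p read 4.69 and 4.60 in WT/WT against 4.04, 4.25 and 4.17 (−0.49, adjusted p = 0.053). let-7 miRNAs, which accumulate as cells differentiate, had 6 of 10 above zero and 0 passing: let-7b-5p read 9.11 and 9.38 against 8.59, 8.84 and 8.89 (−0.47, adjusted p = 0.0957), let-7c-5p differed by −0.35, and let-7g-5p, named after its values were seen, by 0.54. The miR-29 family, which targets collagens, had 3 tested, 0 passing and 2 above zero, with miR-29a-3p at −0.19.

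Of 105 miRNAs on the array in the list for the Dlk1-Dio3 locus 52 were tested. In the list 1 was higher and 1 lower, the arms of miR-411, against 3.16% and 0.743% of all tested. The other 50 did not pass. Over the list the median was 0.05 and 31 lay above zero, against 55.9% of all tested. The bright members miR-434-3p, miR-410-3p, miR-329-3p and miR-3072-5p differed by −0.23, −0.14, −0.36 and −0.21. miR-379-5p, the neighbour of miR-411 and named after its values were seen, read 4.95 and 5.03 in WT/WT against 5.12, 4.96 and 5.01 (0.04). The miR-3070 pair lies in this locus and outside the list. Of 17 tested repeat miRNAs of the Sfmbt2 type 0 passed and 15 lay above zero (median 0.21), against 55.9% of all tested. None had groups that did not overlap, and within slide row 1 the median was −0.06. Among the 17, miR-297c-5p, miR-466a-5p and miR-466p-5p were at the floor on both WT/WT arrays and could not lie below zero.

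**Figure D5:**
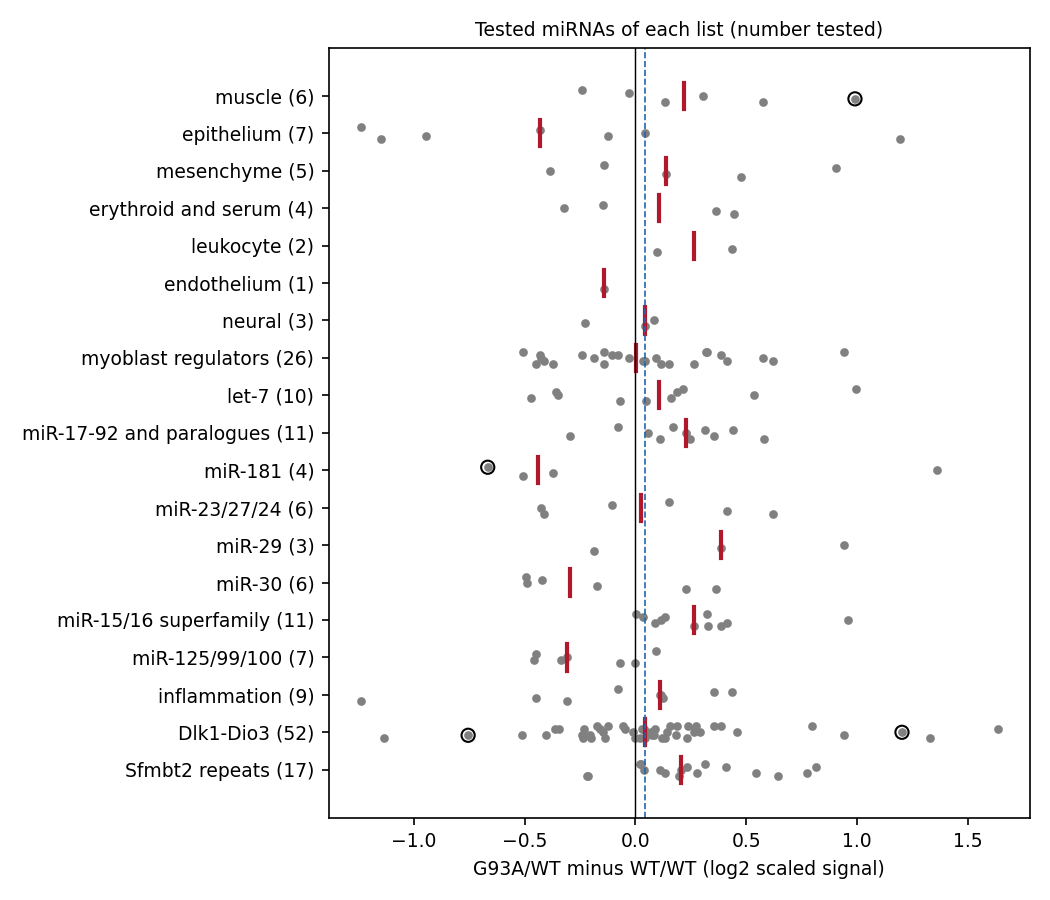
Difference G93A/WT minus WT/WT (log2 scaled signal) for the tested members of each list, 1 point per miRNA, with the number tested in brackets; red bars are list medians, the dashed line is the median of all 538 tested (0.04), and rings mark miRNAs that passed. The epithelial median lies at −0.43, the miR-15/16 median at 0.26, and the rings are miR-133a-5p, miR-181d-5p and the miR-411 arms.

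Tested miRNAs whose genes lie within 10000 bases of the next formed 12 clusters of 4 or more, with median differences from −0.42 to 0.26. The clusters at both ends of that range are described, chosen after their values were seen. Over all tested miRNAs 55.9% lay above zero, and 47.2% of those detected on all 5 arrays. At chrX:53048008-53054327, 9 tested miRNAs of the miR-322, miR-503, miR-542 and miR-450 cluster, part of which slows the myoblast cell cycle, all lay above zero (median 0.26, 1 passing, miR-450a-2-3p). Of these, miR-351-5p and miR-450a-2-3p were at the floor on both WT/WT arrays and could not lie below zero. In that cluster miR-542-3p read 2.44 and 2.21 against 2.96, 3.17 and 3.24 (0.80, adjusted p = 0.167) and miR-322-5p, the brightest, differed by 0.03. At chr7:3218639-3220712, 6 tested miRNAs of the miR-290 to miR-295 cluster, known from embryonic stem cells, had 5 below zero (median −0.42, 0 passing). miR-291a-5p read 3.46 and 3.24 against 3.05, 2.66 and 2.04 (−0.76, adjusted p = 0.21), miR-291b-5p differed by −0.65 (adjusted p = 0.0573) and miR-294-5p by −0.62 (adjusted p = 0.175). These 3 share the run of 10 bases printed above, and the array may not separate them. The next lowest median was that of the let-7e, miR-99b and miR-125a cluster, with 4 of 5 below zero (−0.31, 0 passing).

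Among the 445 miRNAs detected on all 5 arrays, the WT/WT arrays differed most from each other in miR-712-3p (3.38 and 1.49), miR-6935-5p (3.49 and 1.82), miR-1901 (4.11 and 2.64), miR-27b-3p (5.56 and 4.18) and miR-376c-3p (1.22 and 2.60). For miR-712-3p, miR-1901 and miR-27b-3p, WT/WT 1 lay near the G93A/WT arrays and WT/WT 2 below them. A wider gap was that of miR-409-5p, named after its values were seen, which was undetected on WT/WT 1 and stood at 3.12 on WT/WT 2. Over the 445 always-detected miRNAs the gap between the WT/WT arrays had a median of 0.06 and an SD of 0.36. The gaps between G93A/WT arrays had SDs of 0.27, 0.33 and 0.28.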

How the data were processed

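Per the file headers, the deposited scanner output holds for each miRNA a linear intensity summed over its probes, an error and a flag for detection. How background was removed is not stated there. An undetected miRNA is listed at 0.1. Arrays were put on 1 scale by the 75th percentile of the 423 mouse miRNAs that all 8 arrays detected. A floor was set at 1.52 units, the median of the 8 arrays' lowest detected signals after scaling, before log2. The 538 of 1881 mouse miRNAs detected on at least 2 arrays were tested in R 4.3.3 with limma 3.58.1 (lmFit, eBayes, all 8 arrays in 3 groups sharing 1 spread, prior degrees of freedom 1.96), adjusted by Benjamini-Hochberg, at a threshold of 0.05. This limma fit gave every adjusted p printed for a miRNA, unless it is said to come from only the 5 arrays or from the authors' table. The fit was also run on simulated data that had no floor and no loss of detection. That run therefore does not bear on miRNAs at the floor. The authors' deposited table is also an intensity, judged from its values, of unknown normalization. It served as an alternative.

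Named miRNAs are those that passed, those detected on all arrays of 1 group and none of the other, the 8 largest differences each way among those detected on all 5 arrays, the 10 brightest, the passing and 4 brightest members of each list, all tested muscle and epithelial members, of those detected on all 5 arrays the 5 with the largest gap between WT/WT arrays, and partner arms of passing miRNAs. The text names a part of these. Members and lists were chosen with earlier results of these data known. Alternatives covered scaling, floor, filter, spread, slide row, a replicate block and left-out arrays.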

Additional observations from a re-analysis of the deposited data

How the results depend on the processing

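Against 17 miRNAs higher and 4 lower (21 in all), the higher, lower and total counts were 16, 11 and 27 with scaling on the median, 6, 9 and 15 with quantile normalization, 130, 0 and 130 with no scaling, and 2, 3 and 5 with the authors' values. They were 12, 22 and 34 with a floor 2 times higher, 21, 4 and 25 with a floor 2 times lower, and 18, 24 and 42 with a pseudocount of 16 in place of the floor. Testing only miRNAs detected on all 8 arrays, or on all 5, gave 0 in limma (103 and 107 at an unadjusted p under 0.05), detection on at least 2 of the 5 arrays gave 20, 10 and 30, and no filter 9, 2 and 11. With only the 5 arrays in the fit the counts were 27, 16 and 43, and with an intensity trend 19, 9 and 28. With a robust spread they were 16, 3 and 19, with array weights 47, 50 and 97, and with probe classes centred 19, 4 and 23. With the row as a block, and within row 1, the difference is that from WT/WT 1 alone, so their counts are left out. Totals of like size need not hold the same miRNAs. Of the 21, 20 were called again with scaling on the median, 6 with quantile normalization and 10 with a floor 2 times higher. With the pseudocount 14 were called again, with no filter 9 and with only the 5 arrays 18. Quantile normalization of the 5 arrays, chosen after seeing the data, gave 10, 4 and 14. Leaving out 1 array gave 7 to 34 higher, 0 to 27 lower and 7 to 61 in all. Without scaling the 4 lower miRNAs lay above zero: miR-181d-5p at 0.10, miR-411-3p at 0.0153, miR-6947-5p at 0.15 and miR-6960-5p at 0.18. The cause was not tested, except that fewer miRNAs or arrays enter some of these fits.

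A replicate block gave 8 higher, 0 lower and 8 in all. Same-numbered arrays had residual correlations of 0.15 and 0.21, but only 2 pairs exist and the labels name nothing they share, so the numbers were not taken as a pairing. In WT/WT the residuals of both arrays mirror each other, so these correlations are not independent.

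The difference in detected miRNAs per array was 71.2 also with signal above 3 times its error, 64.8 above the common floor, 76.7 within row 1, and 53.0 to 86.0 leaving out 1 array. Scaling on the 75th percentile over all mouse miRNAs could give no value, since on 3 of 8 arrays that percentile is the value of undetected miRNAs. Below a level of 3, where WT/WT arrays missed miRNAs, signal over background limits the comparison.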

Other observations

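On the control features of the array, dmr_3 and dmr_6 were far higher on WT/WT 1 than on any other of the 5 arrays. Before scaling dmr_3 read 3542 units on WT/WT 1 and 226 units on WT/WT 2, against 1128, 606 and 498 units in G93A/WT. For dmr_6 the values were 919 and 41.3 units against 255, 112 and 91.1 units. After scaling WT/WT 1 exceeded WT/WT 2 by 20.0-fold and 28.3-fold. The G93A/WT to WT/WT ratios of the other 8 control features ran from 0.775 (miRNABrightCorner30) to 2.14 (hur_6) before scaling. After it they ran from 0.461 (miRNABrightCorner30) to 1.22 (hur_6). Without miRNABrightCorner30 the lowest was hur_1, at 1.36 before scaling and 0.78 after it.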
